A study of Arabidopsis thaliana with 4 samples.

Results

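The genes described here encode the small nuclear RNAs of the Arabidopsis thaliana spliceosome. They were taken as all genes of biotype snRNA on chromosomes 1 to 5 of a RefSeq gene table, which gave 82 of the 37887 genes on these chromosomes. By their names they fell into 14 U1, 23 U2, 11 U4, 14 U5 and 14 U6 genes of the major spliceosome and 2 U12, 1 U4atac and 3 U6atac genes of the minor spliceosome. These are counts of entries, and 8 names have 2 entries each, so that the 23 U2 entries carry 18 names. Every member carried the name of a spliceosomal class, although the synonyms of 10 of them read "small nucleolar RNA". A gene was called bound when a peak of TRB1, a plant protein with a Myb-type domain known for its binding to telomeric repeats, overlapped it by at least 1 bp.

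Chromatin came from seedlings aged 14 days, and each of the 4 groups had 1 library. The strain TRB1pro:TRB1-GFP, homozygous for its transgene per the labels, makes TRB1 fused to green fluorescent protein from the TRB1 promoter, and its chromatin was captured on GFP-Trap A, a matrix that holds this protein. Wild-type (Wt) chromatin on the same matrix was its control. The antibody anti-TRB1 (5.2) was applied to Wt chromatin in the other approach, with Wt chromatin without it as control. Chromatin was cross-linked with 1% formaldehyde. The values were 4 lists of peaks and not reads, so read depth and the signal in the controls are unknown. The lists called replicate 1 and replicate 2 held 3975 and 7480 peaks, which covered 8.16% and 12.9% of the chromosomes. Which approach gave which of these lists is not given. The 24219 peaks of the PePr list covered 13.7%, and the genomic list held 4995 intervals that covered 3.96%. Base by base, the genomic list was exactly the stretches common to the other 3 lists, so it is no separate measurement.

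Introns are removed by small nuclear RNAs packed with proteins. In this machinery U1 pairs with the start of the intron and U2 with its branch point, U5 holds the exon ends, and U6 enters paired to U4 and then forms the catalytic centre. In the minor spliceosome U12, U4atac and U6atac take the places of U2, U4 and U6. Plants carry many copies of each gene. RNA polymerase II transcribes U1, U2, U4 and U5, while RNA polymerase III transcribes U6.

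Peaks lay at many snRNA genes in the replicate 2 and PePr lists and at few in the replicate 1 list. Replicate 2 peaks overlapped 34 of 82 members (41.5%, exact 95% interval 30.7 to 52.9) and 31.6% of all genes, a share just inside the interval. In the replicate 1 list only 11 were bound (13.4%, 6.89 to 22.7), below the 19% of all genes but with that share inside the interval. The PePr list had a peak at 40 members (48.8%, 37.6 to 60.1), close to the 50.4% of all genes, and the genomic list at 8 (9.76%, 4.31 to 18.3), below the 14.4% of all genes but with that share inside the interval. No peak of any list overlapped 34 of the members (41.5%), a count that was not made over all genes. The PePr list alone left 42 of 82 members and 18776 of the 37887 genes without a peak. Intervals cover counting error only, since each list comes from few libraries, genes are not replicates, and copies of 1 class share their sequence. All counts, neighbours and distances given here take positions as the gene table states them. In it 8 names stand at 2 places of the same chromosome, as described below. Whether other entries are displaced was not tested.

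Members are far shorter than most genes, with a median of 153 bp against 2078 bp for protein-coding genes, and a longer gene has more chance of meeting a peak. A stretch of 153 bp meets a replicate 2 peak at 13.8% of all positions on the chromosomes and a replicate 1 peak at 8.66%. For the PePr and genomic lists these shares are 16.8% and 4.60%. The share of bound members stood above the share of positions in each list, and the lower end of its interval did so in the replicate 2 and PePr lists and not in the other lists. Protein-coding genes lay close to most members: 37 members overlapped one and 30 more lay within 500 bp of one. Of the 15 members farther away, 3 met a replicate 2 peak, 3 a PePr peak and none a peak of another list. Among the 67 nearer members, 31 met a replicate 2 peak, 37 a PePr peak, 11 a replicate 1 peak and 8 a genomic interval. For the 15, exact 95% intervals were 4.33 to 48.1% for replicate 2 and for PePr, and 0 to 21.8% for the others. They held the share of all genes for each list but PePr, where it was 50.4%. Whether nearness to a protein-coding gene matters was not tested.

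**Figure D1:**
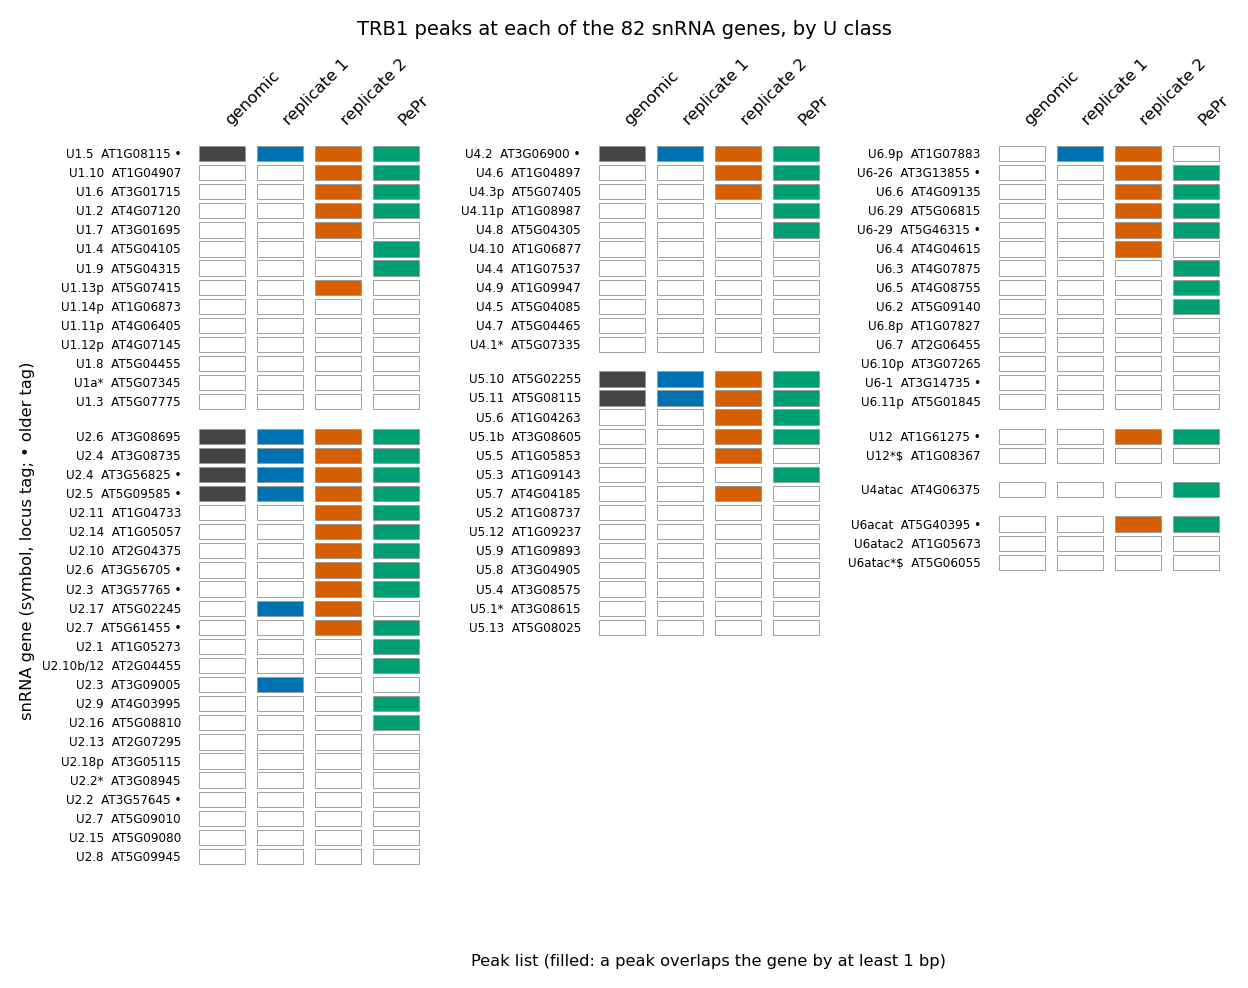
Each of the 82 snRNA genes is a line, grouped by U class and named by symbol and locus tag, and each column is a peak list; a filled cell means that a peak overlaps the gene by at least 1 bp. Filled cells fall mostly in the replicate 2 column (34) and the PePr column (40), while 8 genes are filled in all columns; a dot marks the 13 older locus tags.

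The gap between the replicate lists was wide for snRNA genes. The replicate 2 list reached 3.09 times as many members as the replicate 1 list, against 1.66 times for all genes. By class it was 1.83 times for U2, near that of all genes, 3.0 times for U4 and U5 and 6.0 times for U1 and U6. The replicate 1 list held only 1 or 2 genes of each of these classes other than U2. Of the 34 members bound in replicate 2, 10 (29.4%) were also bound in replicate 1, whereas 53.3% of all genes bound in replicate 2 were. In the other direction 10 of the 11 members bound in replicate 1 (90.9%) were bound in replicate 2, near the 88.7% of all genes. The PePr list overlapped 27 of the 34 replicate 2 members (79.4%), against 85.3% of all genes bound there. By these counts the members bound in replicate 1 were nearly all shared, and replicate 2 held 24 further members; the exception was the U2.3 entry AT3G09005, of which a replicate 1 peak with a score of 861.6 overlapped 20 bp. With the higher-scoring 50% of each list alone, 16 members were bound in replicate 2 and 4 in replicate 1.

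Other short RNA genes were counted in the same way. Genes of snoRNAs, which guide the modification of ribosomal and other RNAs, were bound at 186 of 287 in replicate 1 (64.8%) and 217 in replicate 2 (75.6%), so 1.17 times as many in replicate 2. For tRNA genes the shares were 21.8% and 23.0% of 625 genes, and for microRNA genes 13.2% and 21.2% of 326. The replicate 2 share of the snRNA genes, 41.5%, thus stood between those of the tRNA and the snoRNA genes, while their replicate 1 share was close to that of the microRNA genes. PePr peaks overlapped 51.2% of snoRNA genes and 44.8% of tRNA genes, both inside the interval of the snRNA genes, and 17.5% of microRNA genes. Median lengths were 92 bp for snoRNA, 73 bp for tRNA and 144.5 bp for microRNA genes.

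Across U classes the shares did not separate beyond their intervals. In the genomic list 4 of 23 U2 genes (17.4%), 2 of 14 U5 genes (14.3%), 1 of 11 U4 genes (9.09%), 1 of 14 U1 genes (7.14%) and 0 of 14 U6 genes were bound. The count of 0 for U6 allows a share of up to 23.2%, above the 14.4% of all genes. In replicate 1 the bound genes were 6 of U2 (26.1%), 2 of U5, and 1 each of U1, U4 and U6. In replicate 2 they were 11 of U2 (47.8%), 6 each of U1, U5 and U6 (42.9%) and 3 of U4 (27.3%). In the PePr list they were 14 of U2 (60.9%), 7 of U6 (50.0%), 5 of U4 (45.5%), 6 of U1 (42.9%) and 5 of U5 (35.7%). Among these 5 major classes U2 had the highest share in each list, but its exact interval overlapped that of every other major class, and the order turned with the settings. With 1 entry kept for each name that has 2, 2 of 18 U2 genes (11.1%) were bound in the genomic list, below the 14.3% of U5. With the higher-scoring 50% of peaks alone, the U2 share was 21.7% in replicate 2, below the 35.7% of U6. Among members of at least 90 bp, 77.8% of U6 and 63.6% of U2 genes were bound in the PePr list. Genes for U6, the RNA polymerase III product, had the same replicate 2 count as U1 and U5 genes, with an interval of 17.7 to 71.1% for each. Among the 6 U6 entries are 2 of the same name and the 53 bp entry U6.9p. With members of at least 90 bp the replicate 2 shares were 55.6% for U6, 54.5% for U1 and 40.0% for U5. Counts this small do not tell whether the polymerase matters.

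**Figure D2:**
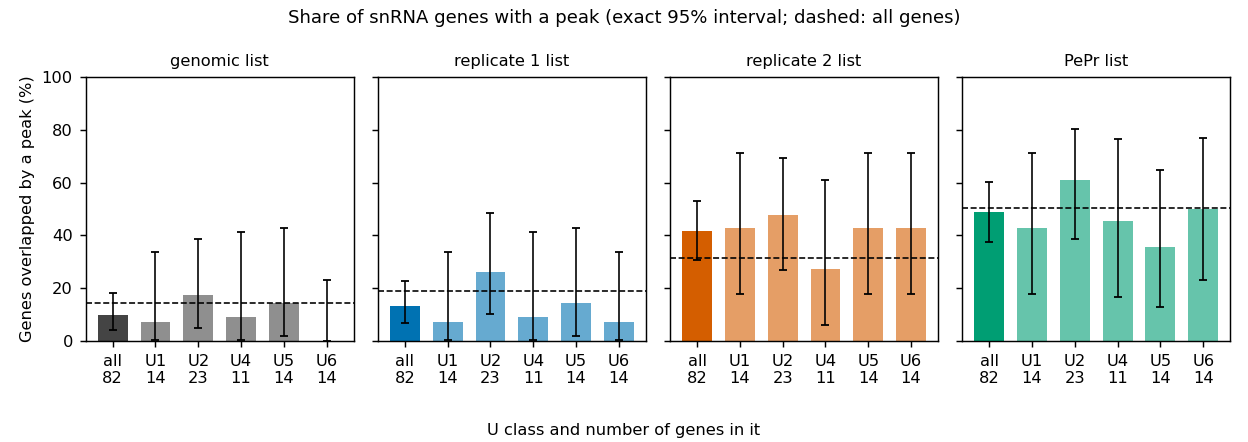
Bars give the percentage of genes overlapped by a peak in each list, for all 82 snRNA genes and for the U1, U2, U4, U5 and U6 classes with their number of genes; lines are exact 95% intervals and dashed lines the share of all genes. The class intervals overlap within each list, and no U6 gene is bound in the genomic list.

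The U1 gene U1.5 (AT1G08115) was the only U1 gene bound in the genomic list. Its interval there ran over chromosome 1, 2537931 to 2539120, and took in the whole gene. In the authors' deposited lists its peak scored 3100 in both replicate lists and had a PePr p-value of 6.64e-14. Scores of 3100 or more belonged to 29.4% of the replicate 1 peaks and 12.3% of the replicate 2 peaks, and the many peaks tied at exactly 3100 cannot be ranked among themselves. The same peaks also overlapped the protein-coding genes AT1G08110 and AT1G08120. Here, as at most members, a peak cannot be assigned to the snRNA gene rather than to its neighbours. The other U1 genes in replicate 2 were U1.2, U1.6, U1.7, U1.10 and U1.13p, with authors' scores from 94.0 to 1607. The smallest PePr p-value at any member, 3.45e-25, was that of U1.6 (AT3G01715).

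Among the U2 genes, those of the RNA that pairs with the branch point, 4 entries under 3 names were bound in all lists. At U2.5 (AT5G09585) the genomic interval covered the whole gene (chromosome 5, 2974661 to 2976020), and the authors' scores were 1662 in replicate 1 and 2825 in replicate 2. This interval also reached MTHSC70-2, which encodes a mitochondrial HSP70 chaperone, and AT5G09580. The name U2.4 stands in the table at 2 places of chromosome 3. The entry AT3G08735 overlapped the interval 21051781 to 21052970, with scores of 1920 and 2784 in replicates 1 and 2, and the entry AT3G56825 the interval 21041411 to 21042260, with scores of 770.0 and 2139. The replicate 1 scores thus lay on either side of that list's median of 1772, and both replicate 2 scores lay above that list's median of 571.3.

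The last of these U2 entries was covered only in part by its genomic interval. At U2.6 (AT3G08695) the interval of 21014891 to 21015530 on chromosome 3 covered 29.7% of the gene. The replicate 2 peak also ended at 21015530 and covered 29.7%, while the replicate 1 and PePr peaks each covered the whole gene. Its PePr p-value was 1.45e-21. The scores were 817.4 in replicate 1 and 273.6 in replicate 2, both below their list's median. Other U2 genes in replicate 2 were U2.11, U2.14, U2.10, U2.6 (AT3G56705), U2.3 (AT3G57765) and U2.7 (AT5G61455), with authors' scores of 1111, 1926, 239.9, 487.9, 228.2 and 152.6. A further U2 entry, U2.17 (AT5G02245), lay in a replicate 1 and a replicate 2 peak but 26 bp outside the nearest PePr peak. It is 97 bp long and stands 265 bp from U5.10. In the authors' deposited lists these shared peaks had scores of 771.3 and 368.0.

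The U4 gene U4.2 (AT3G06900), of the RNA that escorts U6 into the spliceosome, was the only U4 gene bound in the genomic list (chromosome 3, 2178211 to 2178720). The interval covered 86.9% of it and reached ULP1A and AT3G06895. The authors' scores were 1200 in replicate 1 and 242.7 in replicate 2, both below the list medians. Its replicate 1 peak was 4084 bp wide with its middle 1372 bp from the gene's middle, and in replicate 2 that distance was 82 bp.

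Both U5 entries bound in the genomic list were short. U5.10 (AT5G02255), of 42 bp, lay in the interval 4690131 to 4691150 of chromosome 5, with scores of 771.3 and 368.0. U5.11 (AT5G08115), of 43 bp, lay at the edge of 21957031 to 21958050, with a score of 3100 in both replicate lists. Full-length U5 genes in the table have 96 to 104 bp, and none of these 10 entries was bound in the genomic list or in replicate 1. In replicate 2, 4 of the 10 were bound, namely U5.1b, U5.5, U5.6 and U5.7, with authors' scores of 138.0, 539.6, 3100 and 119.6. The share of U5 genes in the genomic list therefore rests on entries much shorter than these.

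U6 and the minor spliceosome had no gene in the genomic list. The nearest was U6.9p (AT1G07883), an entry of 53 bp that lay inside a replicate 1 peak (chromosome 1, 19955977 to 19960565) and a replicate 2 peak, both with a score of 3100, and 13 bp outside a PePr peak. These peaks were 4589 and 4843 bp wide, and the entry lay at their edge, 2241 and 2359 bp from the middle. Other U6 genes in replicate 2 were U6-26, U6.6, U6.4, U6.29 (AT5G06815) and U6-29 (AT5G46315), with authors' scores of 613.5, 282.9, 1418, 2309 and 1072. U6-1 (AT3G14735) was bound in no list, and its nearest replicate 2 peak was 3448 bp away.

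In the minor spliceosome, U12 (AT1G61275) had a replicate 2 peak with a score of 432.3 and a PePr peak (chromosome 1, 22602691 to 22603710) with a p-value of 4.31e-11. The middle of that PePr peak lay 8 bp from the middle of the gene. The entry U6acat (AT5G40395) had a replicate 2 peak with a score of 883.1 and a PePr p-value of 6.18e-09. U4atac (AT4G06375) had only a PePr peak, with a p-value of 2.88e-18. None of these 3 genes had a replicate 1 peak, and U6atac2 (AT1G05673) had no peak in any list.

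Replicate 2 peaks were set close to the snRNA genes under them. All but 1 of the 34 bound members lay wholly inside their peak, and the middle of the gene was a median of 193 bp from the middle of the peak, in peaks with a median width of 1856 bp. The gene's middle lay in the middle 50% of the peak's width for 27 of 34 members (79.4%). That stretch held 72.9% of tRNA genes, 58.0% of microRNA genes and 49.8% of snoRNA genes bound in the same list. In replicate 1 the median distance was 416 bp, in wider peaks with a median of 2517.5 bp, and 6 of 11 members (54.5%) lay in that stretch. In the PePr list the median distance was 145 bp, in narrower peaks with a median of 765 bp, and 22 of 40 (55.0%) lay there. In the genomic list it was 346 bp, and 2 of 8 lay there. Distances in bp therefore do not compare the lists apart from peak width. The closest in replicate 2 were U5.7 at 26 bp, U2.3 (AT3G57765) at 28 bp, U2.17 at 32 bp and U2.6 (AT3G56705) at 37 bp. At least 1 protein-coding gene was overlapped by 29 of the 31 distinct replicate 2 peaks (93.5%), against 93.8% of all replicate 2 peaks. The 2 without one lay at U2.6 (AT3G56705) and U6.4.

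**Figure D3:**
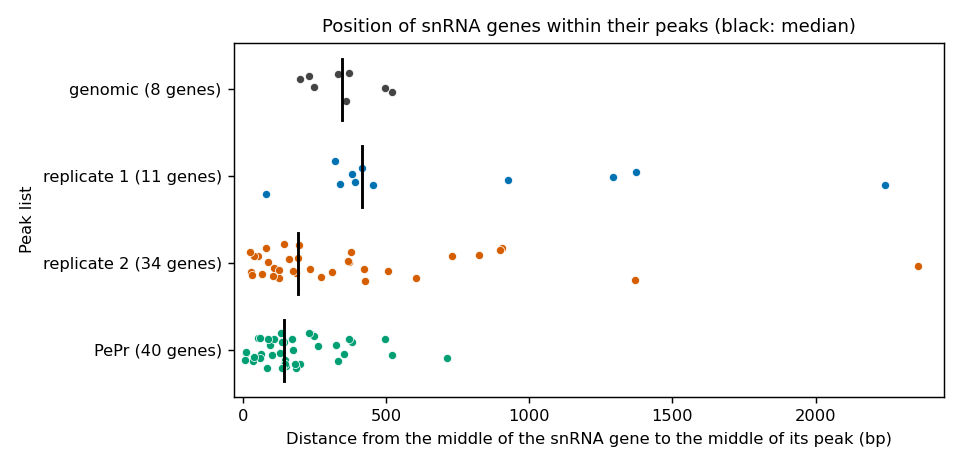
Each point is an snRNA gene overlapped by a peak, placed by the distance in bp from the middle of the gene to the middle of its peak, for each list; black lines are medians. The replicate 2 and PePr points crowd towards 0, with medians of 193 and 145 bp, and the replicate 1 points lie farther out, with a median of 416 bp. Peak widths differ, with medians of 1856 bp in replicate 2, 765 bp in PePr and 2517.5 bp in replicate 1.

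Peaks at snRNA genes had scores across the whole range of their lists. The 31 distinct replicate 2 peaks had authors' scores from 94.0 to 3100, with a median of 613.5 against 571.3 for the list, and 16 of them lay above the list's median. Those that overlapped a replicate 1 peak numbered 10 and had a median of 2804, while the 21 others had a median of 487.9. For the whole replicate 2 list these medians were 1374 and 296.1, so the same split was present there. The 10 distinct replicate 1 peaks ranged from 770.0 to 3100 with a median of 1431, below the 1772 of the list, and 4 of them lay above it. In the PePr list the median p-value of the 38 distinct peaks was 3.68e-11 against 5.53e-09 for the list, and 24 of them had a smaller p-value than the list's median. By class, the replicate 2 peaks of U4 genes, with scores of 94.0, 203.5 and 242.7, had the lowest median, and those of U6 genes the highest, 1245. These medians rest on 3 and 6 peaks. The U4 peaks of 94.0 and 203.5 also count for U1, and the U6 peak of 3100 held U6.9p only at its edge.

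**Figure D4:**
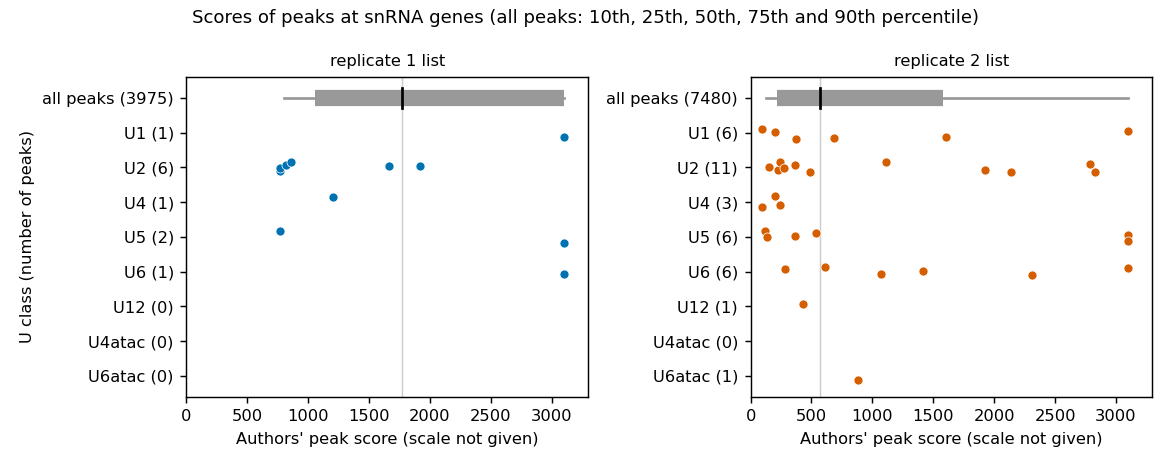
Points are the authors' scores of the distinct peaks at the genes of each U class in the replicate 1 and replicate 2 lists; the grey bar shows all peaks of the list, with a black line at its median of 1772 or 571.3. The points at snRNA genes span the range of both lists, with the 3 U4 peaks of replicate 2 at its low end; a peak over genes of 2 classes is drawn in both.

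U1 and U4 genes often stand side by side. In 7 cases a U1 and a U4 gene were neighbours with 188 to 281 bp between them, so that 7 of the 14 U1 genes and 7 of the 11 U4 genes stood in such a pair. None of the 7 pairs was touched in the genomic or replicate 1 list, where 14.4% and 19% of all genes were bound. Only 1 U1 and 1 U4 gene were bound in each of these lists, so the count says little about pairs. In replicate 2, both genes of 2 pairs were bound and no gene of the other 5, and in each of the 2 cases 1 peak held both genes. These were U4.6 with U1.10, under a peak with a score of 94.0, and U4.3p with U1.13p, under a peak with a score of 203.5. In the PePr list both genes were bound in 2 pairs, 1 gene in 2 pairs and neither in 3. Of the 7 U1 genes outside such pairs, 4 were bound in replicate 2 and 3 in the PePr list, and of the 4 U4 genes outside them 1 and 2.

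The entries under 8 names were found at 2 places of the same chromosome. In each of these cases 1 entry had a locus tag that follows the numbering of the protein-coding genes around it, called older here, and the other had a tag that does not. The later-tag entry lay at the higher position in all 8, by 3.67 kb on chromosome 1, by 11.1 to 11.4 kb at the 4 names on chromosome 3 and by 17.2 to 17.5 kb at the 3 names on chromosome 5. The 5 older-tag entries without a second entry all stood at lower positions of their chromosome than those with one. No sequence was used here, so which entry of a name marks the copy cannot be told apart, and whether later-tag entries of other names are displaced likewise was not tested.

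A larger share of the older-tag entries than of the later-tag ones was bound in each list. In replicate 2, 11 of 13 older-tag members were bound (84.6%, exact 95% interval 54.6 to 98.1) and 23 of 69 later-tag members (33.3%, 22.4 to 45.7). In the PePr list the counts were the same 11 of 13 and 29 of 69 (42.0%, 30.2 to 54.5). In replicate 1 and in the genomic list 4 of 13 older-tag members were bound (30.8%, 9.09 to 61.4). Of the 69 others, 7 (10.1%, 4.18 to 19.8) and 4 (5.80%, 1.6 to 14.2) were, so in these 2 lists the intervals overlapped. Over all genes the shares were 31.6% in replicate 2, 50.4% in the PePr list, 19% in replicate 1 and 14.4% in the genomic list. At the 8 doubled names alone the direction differed between lists. The older entry was bound at 7 names and the later entry at 3 in both the replicate 2 and the PePr list, whereas in replicate 1 the older entry was bound at 1 and the later at 3, and in the genomic list at 1 and 2. Lengths differed too, since 6 of these 8 older entries are 551 to 912 bp long and their later entries 101 to 195 bp. U12, with 175 bp at both, was bound in replicate 2 and the PePr list at the older entry and in no list at the later one.

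Among other short RNA genes the same split by locus tag gave in replicate 2 81.9% of 72 against 73.5% of 215 for snoRNA genes, 28.3% of 506 against 0.840% of 119 for tRNA genes, and 27.9% of 179 against 12.9% of 147 for microRNA genes. PePr shares of older-tag and later-tag snoRNA genes were 50.0% and 51.6%, and in the genomic list 43.1% and 40.9%. For microRNA genes in the genomic list they were 7.26% and 6.80%, so these pairs hardly differed. With the later-tag entry of each doubled name left out, 31 of 74 entries were bound in replicate 2 and 8 in replicate 1. Of the 11 members whose symbol ends in p, most of them short, 3 were bound in replicate 2 and none in the genomic list.

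**Figure D5:**
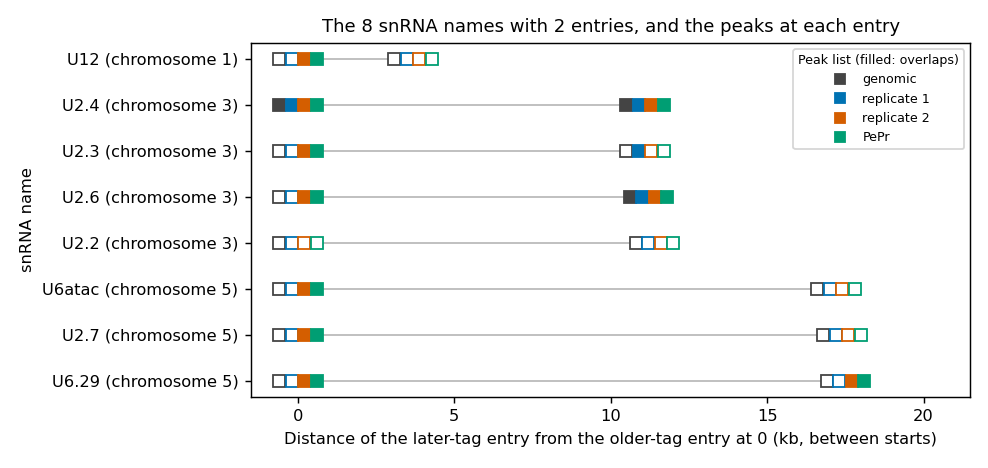
For the 8 names with 2 entries, the older-tag entry is at 0 and the later-tag entry at its distance in kb; the 4 squares at each entry, set side by side, are the peak lists and are filled where a peak overlaps the entry. Replicate 2 squares are filled at 7 older entries and 3 later ones, and the distances gather by chromosome near 11 and 17 kb.

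Genes of proteins that join these RNAs, with 1 gene for their transcription, were bound more often than protein-coding genes at large. In a list of 37 such genes, 14 were bound in the genomic list (37.8%, exact 95% interval 22.5 to 55.2), where 17.2% of protein-coding genes were, and 15 in replicate 1 (40.5%, 24.8 to 57.9), where 22% were. In replicate 2 it was 24 (64.9%, 47.5 to 79.8), where 37.4% of protein-coding genes were bound, and in the PePr list 35 (94.6%, 81.8 to 99.3), where 61% were. From replicate 1 to replicate 2 the count thus went from 15 to 24, where the RNA genes went from 11 to 34. Lengths of the 37 genes are not set beside these counts, although a longer gene has more chance of meeting a peak.

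The proteins of the Sm ring, which binds U1, U2, U4 and U5, had 7 of 13 genes bound in the genomic list, among them SmD3 (chromosome 1, 28623411 to 28626470, a score of 3100 in both replicate lists) and AT1G20580 (chromosome 1, 7128441 to 7129460, likewise 3100 in both). The LSm ring that binds U6 had none of its 9 genes bound in the genomic list or in replicate 1, 3 in replicate 2 and 9 in the PePr list. With 9 genes the exact interval for a count of 0 reaches 33.6%, above the background of 17.2%. Of the U1 proteins, U1A was bound in the genomic list (chromosome 2, 19516341 to 19517861) with a score of 3100 in both replicate lists. Of the U2 proteins, U2A' was (chromosome 1, 3161151 to 3162340), with scores of 3100 and 2690.

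Among proteins of U5 and of the complex of U4, U5 and U6, 5 of 9 genes were bound in the genomic list. Those of highest rank were AT4G38780, with a score of 3100 in both replicate lists (chromosome 4, 18110271 to 18111460), and EMB2770, also called STA1, with scores of 2895 and 921.0 (chromosome 4, 1519971 to 1520820). SRD2, a factor needed for the transcription of snRNA genes, was bound in replicate 2 with a score of 1190 and in the PePr list with a p-value of 1.87e-12, and in neither of the other lists.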

How the data were processed

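The deposited lists were used as the authors made them: positions in each, a peak score on a scale that is not given in the replicate 1 and 2 lists, and a p-value per peak in the deposited PePr list. The submitters' processing notes name Bowtie2 2.2.2, SAMtools, bedtools and MACS and the builds TAIR9 and TAIR10, without roles. PePr appears only as the name of a list. The sources give no threshold, pooling, control or read depth for a list.

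Genes came from a RefSeq table of TAIR10.1, used for names, lengths and neighbours only, and peak positions are printed as the lists give them, counted from 1. The table holds no strand and no sequence was used, so no promoter or motif is described. The U class is the letter U and number of the symbol. An older locus tag differs by at most 20 from that of 1 of the 4 nearest protein-coding genes; this split was made after the data were seen. The 37 protein genes were listed by locus tag, and 13 have no symbol in the table.

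Overlaps were counted in Python 3.11.15 with pandas 2.3.3 and numpy 2.4.6, by code checked on 20 simulated sets, and exact Clopper-Pearson intervals of 95% came from scipy 1.17.1. With 1 library per group no test was made. Members and lists were chosen with earlier results of these data known. Described singly are members bound in the genomic list or in both replicate lists, up to 3 per class otherwise, and 2 protein genes per group; other members named were chosen after their values were seen. Alternatives changed the overlap, gene edges, peaks and members.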

Additional observations from a re-analysis of the deposited data

How the results depend on the processing

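No paired analysis was possible because each group has 1 library and the results come from no test. Of 82 members, the bound counts fell to 3 (genomic), 4 (replicate 1), 16 (replicate 2) and 25 (PePr) with the higher-scoring 50% of peaks. The genomic list has no score, and the value that ranked its intervals is not given, so its counts under that setting are not interpreted. With peaks cut to 500 bp the bound counts were 4, 4 and 20 in the first 3 lists, and with whole genes inside a peak 3 in the genomic list. Only 6 members have no other gene within 500 bp, of which 0, 0, 2 and 2 were bound in these lists. The 13 older-tag entries, a setting added after the data were seen, gave 4, 4, 11 and 11. Other settings kept these counts within 1.5 times.

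In the genomic list U1 went from 1 of 14 to 0 with cut peaks, and was 0 of 1 among members without near genes. U2 went from 4 of 23 (17.4%) to 1 with whole genes or higher-scoring peaks and to 2 with cut peaks. Settings with fewer U2 genes gave 2 of 6 with older tags (33.3%, a higher share) and 2 of 18 with 1 entry per doubled name. Without near genes it was 0 of 3. U4 went from 1 to 0 with whole genes or higher-scoring peaks. U5 went from 2 to 1 with whole genes, higher-scoring or cut peaks, and was 0 of 10 with members of at least 90 bp. The counts with higher-scoring peaks are again not interpreted, since the value that ranked the genomic intervals is not given. U6 went from 0 to 1 with genes extended by 200 or 500 bp. No U4 or U5 gene stands alone and no U5 gene has an older tag, so these gave no value.

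For the 37 protein genes a peak over 50% of the gene left 1, 7, 8 and 5 in the genomic, replicate 1, replicate 2 and PePr lists, and whole genes 0, 2, 0 and 0. Higher-scoring peaks left 15 in replicate 2. The cause of these changes was not tested. Read depth is unknown, so how far it sets the length of each list cannot be given, and the lower counts of replicate 1 do not show that a gene was unbound there.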
